A study of Mus musculus with 12 samples.

Results

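The genes described here are 9 regulators and receptors of the renal stroma, the connective tissue of the kidney. They are the transcription factors Foxd1, Meis1, Meis2, Tcf21, Twist1 and Twist2, the growth factor receptors Pdgfra and Pdgfrb, and the secreted guidance protein Ntn1. They were found by gene symbol in the deposited counts, where all 9 of 9 were present among 36186 genes. RNA was sequenced from whole kidneys of mouse embryos at E18.5, on a mixed background, in 12 libraries of 4 genotypes with 3 libraries each. Wild type kidneys carried no mutation. Hoxa-/- Hoxc+/- kidneys were homozygous for frameshift alleles of Hoxa9, Hoxa10 and Hoxa11 and heterozygous for frameshift alleles of Hoxc9, Hoxc10 and Hoxc11. Hoxa+/- Hoxc-/- kidneys had the reverse arrangement. In the libraries labelled Hoxa-/- Hoxc-/-, the labels give all 6 genes as homozygous mutant, whereas the study describes sequenced kidneys of this kind as retaining 1 or 2 normal Hoxa11 alleles. The study also found no detectable kidneys at this age in embryos homozygous for all of these mutations. By that account the labels cannot be literally right for Hoxa11 in these libraries. Hoxa-/- Hoxc-/- and double mutant are therefore used below as names of the group only. Which of these libraries carried which Hoxa11 alleles is not given in the labels. No allele of the Hoxd cluster was mutated in these groups. The comparisons ask how the stromal genes stand when mainly Hoxa, mainly Hoxc or both are mutated.

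The renal stroma arises largely from progenitors that lie around the cap mesenchyme under the kidney capsule and that make the fork head protein Foxd1. Their descendants include interstitial fibroblasts, pericytes, vascular smooth muscle and mesangial cells, and signals from the stroma act on nephron progenitors and on the branching ureteric bud. Meis1 and Meis2 are TALE homeodomain proteins that bind DNA beside Hox proteins, Tcf21 and the Twist proteins are basic helix-loop-helix factors of mesenchyme, and Pdgfra and Pdgfrb are receptor tyrosine kinases for platelet-derived growth factors that mark fibroblasts and mural cells. Here Foxd1, Meis1 and Tcf21 stand for the cortical progenitor stroma, and Pdgfra and Twist2 for the fibroblast type.

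Counts on genes ranged from 28616877 to 47067903 per library, with a median of 39328488. Levels are given as CPM, counts scaled to library depth, after TMM scaling over the 12 libraries. Library 20 of the Hoxa-/- Hoxc+/- group stood apart from the others. It had the fewest counts, its 100 most abundant genes took 19.6% of its counts against 14.0% to 15.9% in the other 11, and its deposited log2 values had an SD over genes of 0.73 against 0.24 to 0.47. In that library markers of the proximal tubule summed to 443.5 CPM, below the range of 1044 to 3167 CPM in the others, and markers of the cap mesenchyme summed to 705 CPM, above the range of 160 to 533 CPM. Member results that rest on it are given with and without it. The 3 Hoxa+/- Hoxc-/- libraries came from a sequencing run of their own and the remaining 9 shared another, so that for this genotype run and genotype cannot be told apart.

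The sexes were unequally spread. Xist, which is transcribed from the inactive X chromosome, stood between 60.1 and 336 CPM in Hoxa-/- Hoxc+/- 31 and 33, Hoxa+/- Hoxc-/- AC110 and Hoxa-/- Hoxc-/- 27 and 29, and at or below 0.138 CPM in the other 7 libraries. The Y-linked gene Ddx3y stood between 54.2 and 93.6 CPM in those 7 and at or below 0.0824 CPM in the 5 with Xist. All 3 wild type libraries thus had the male pattern, and Hoxa-/- Hoxc-/- 24 was the male one of its group. Library 20 was the male one of Hoxa-/- Hoxc+/-. Without it that group held only libraries of the female pattern, so against wild type sex and genotype cannot then be told apart. The mutant Hox alleles carry small changes in a first exon, so transcript counts of the Hox genes do not check the labels. The transcripts were present in every group. Hoxa10, for example, had a mean of 147 CPM in wild type and 105 CPM in Hoxa-/- Hoxc-/-, and Hoxc10 had 58.6 and 34.2 CPM.

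The tissue carried the markers of kidney in every library. The 9 podocyte markers, led by Cdkn1c or Podxl, summed to between 1906 and 3067 CPM, and the 6 proximal tubule markers, led by the endocytic receptor Lrp2 or by Slc34a1, were above the floor of 3 counts in all 12 libraries. Adrenal and gonad markers, led by Star, summed to between 4.35 and 7.72 CPM. Cyp11b1 had fewer than 3 counts in 10 of 12 libraries, where 3 counts correspond to between 0.0614 and 0.116 CPM. Nothing in the labels says whether the 3 libraries of a group are 3 animals, so the p-values below measure spread between these samples.

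The levels of the 9 genes in wild type, on the scale of CPM per kb of exon, ran from Tcf21 at 93.1 ± 11.2 down to Twist2 at 1.34 ± 0.183 (SD, n = 3). Between them came Pdgfrb at 40.1 ± 3.50, Pdgfra at 19.4 ± 1.37, Ntn1 at 14.8 ± 1.00, Meis2 at 13.8 ± 1.87, Meis1 at 7.42 ± 0.695, Twist1 at 6.27 ± 0.968 and Foxd1 at 4.79 ± 0.534 CPM per kb. The neighbours Ntn1 and Meis2, Meis1 and Twist1, and Twist1 and Foxd1 did not differ beyond their SDs. This order depends on the annotated length. With the exons of basic transcripts alone Meis2 came to 38.4 CPM per kb, and with the RefSeq span of its single exon Foxd1 came to 9.86 CPM per kb. Annotated transcripts of other genes overlap Meis1, Tcf21, Pdgfra, Twist2 and Ntn1, and whether the counting used strand is not given in the sources used here, so reads of such partners cannot be told apart from reads of the member.

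The double mutants were the genotype with the most members past the threshold. In Hoxa-/- Hoxc-/- against wild type, 4 of the 9 genes rose and none fell. They were Twist2, which rose 3.65-fold, Pdgfra, which rose 1.75-fold, Foxd1, which rose 1.58-fold, and Ntn1, which rose 1.31-fold. These 4 of 9 stand beside a background in which 13.7% of the 15839 genes tested passed the threshold and 6.31% passed it as higher and 7.4% as lower. The 2171 genes behind that share became 535 to 3386 with a library left out, and 2 members passed in the fits of 12 libraries, of 9 libraries and with Xist. At an unadjusted p under 0.05 there were 6 of 9 members, beside 32.4% of all genes. The fibroblast-type genes therefore both rose, whereas the cortical progenitor genes split, with Foxd1 rising and Meis1 and Tcf21 overlapping wild type. The groups did not overlap for 5 genes that were higher (these 4 and Pdgfrb) and for 1 that was lower (Meis2), beside 17.3% and 20.8% of all genes tested (38.1% either way). Whole kidneys were sequenced, so more or fewer cells of a type and more or less RNA per cell cannot be told apart for any of these genes.

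**Figure D1:**
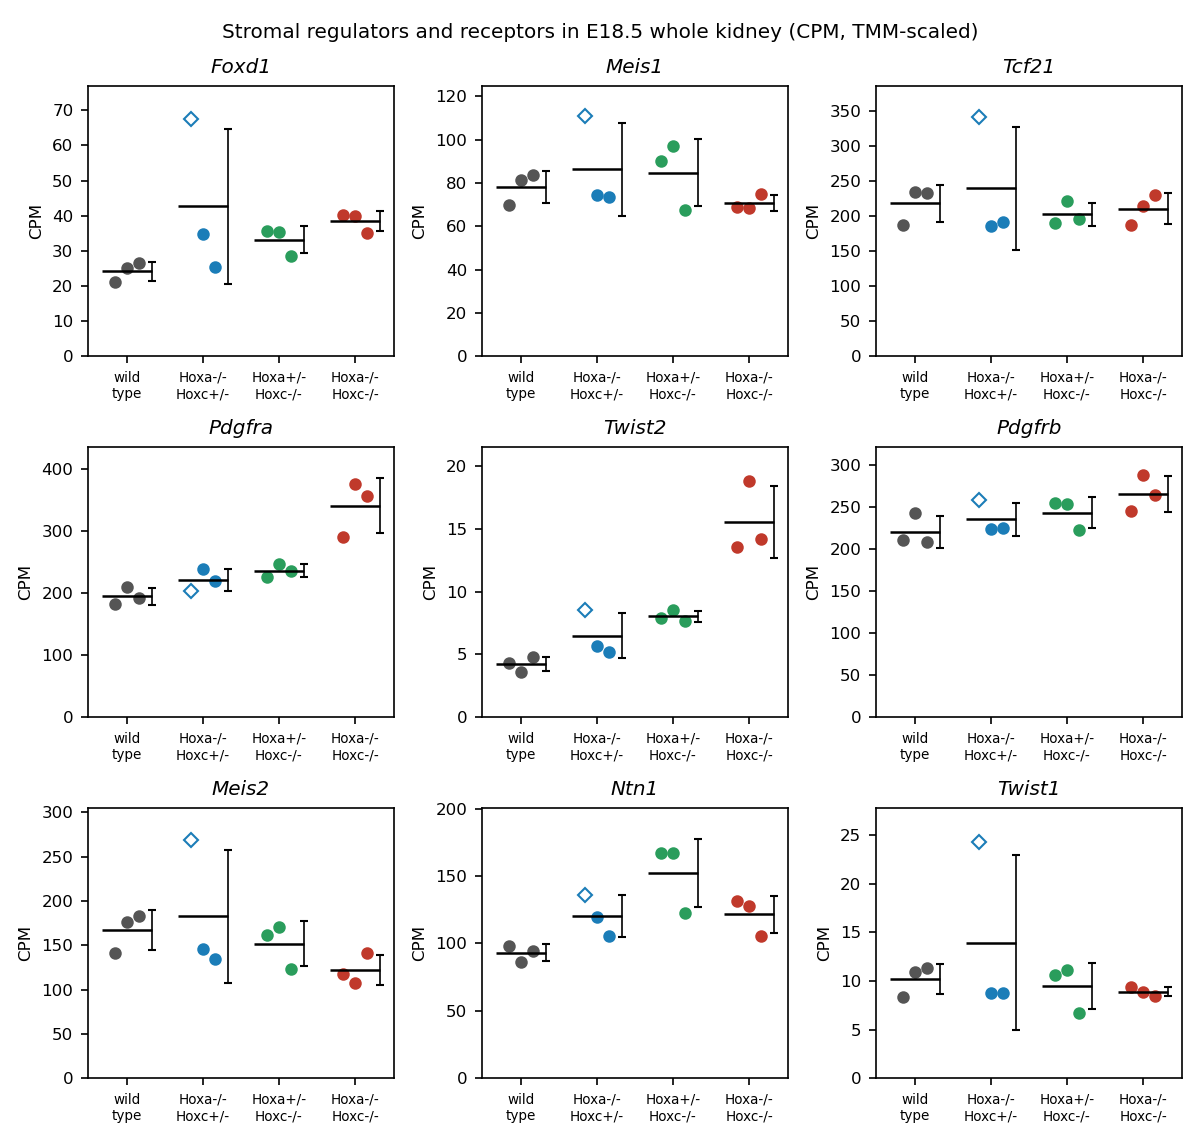
Level of each of the 9 genes in CPM (y axis, from 0) in the 12 libraries, by genotype (x axis). Each point is 1 library, the open diamond is Hoxa-/- Hoxc+/- 20, horizontal lines are means and error bars are SDs of 3 libraries. Pdgfra and Twist2 are highest in the 3 Hoxa-/- Hoxc-/- libraries, and the open diamond is the highest point for Foxd1, Meis1, Meis2, Tcf21 and Twist1.

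Twist2, a basic helix-loop-helix repressor found in dermal and other fibroblast lineages, was the member with the largest change. Its levels were 4.30, 3.64 and 4.80 CPM in wild type 30, 37 and 55, and 13.6, 18.8 and 14.2 CPM in Hoxa-/- Hoxc-/- 24, 27 and 29. Every Hoxa-/- Hoxc-/- library was thus higher than every wild type library, the male library 24 included. The log2 fold change was 1.87 ± 0.18 (SE) with an adjusted p of 0.00181 (edgeR quasi-likelihood test, Benjamini-Hochberg). Twist2 is on the list of changed genes that the study drew up from these samples, so its rise is not independent evidence. Its close relative Twist1, which acts in cranial and limb mesenchyme, had 8.41, 10.9 and 11.3 CPM in wild type and 9.38, 8.89 and 8.49 CPM in Hoxa-/- Hoxc-/-. The Twist1 groups overlapped, and its log2 fold change of -0.20 had a 95% interval of -0.53 to 0.14. The within-library log2 ratio of Twist2 to Twist1, a pair chosen after its values were seen, was -0.97, -1.58 and -1.24 in wild type and 0.53, 1.08 and 0.74 in Hoxa-/- Hoxc-/-. Every double mutant library stood above every wild type library in this ratio.

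Pdgfra, the receptor of fibroblasts and their mesenchymal progenitors, was the abundant fibroblast-type gene. It had 182, 209 and 193 CPM in wild type and 291, 376 and 356 CPM in Hoxa-/- Hoxc-/-. The lowest double mutant library stood well above the highest wild type library. The log2 fold change was 0.81 ± 0.11 with an adjusted p of 0.00639. Pdgfrb, the receptor of pericytes, mesangial and vascular smooth muscle cells, had 210, 242 and 208 CPM in wild type and 245, 287 and 264 CPM in Hoxa-/- Hoxc-/-. These groups did not overlap, but the gap between wild type 37 and mutant 24 was small, and the log2 fold change of 0.27 (95% interval 0.05 to 0.49) did not pass the threshold (adjusted p 0.0961). The within-library log2 ratio of Pdgfra to Pdgfrb, also chosen after its values were seen, moved from a mean of -0.17 ± 0.06 in wild type to 0.36 ± 0.10 in Hoxa-/- Hoxc-/- (SD, n = 3).

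Foxd1, the fork head factor of the cortical stroma, had 21.3, 25.0 and 26.5 CPM in wild type and 40.1, 40.0 and 35.2 CPM in Hoxa-/- Hoxc-/-. All 3 double mutants were higher than all wild types. The log2 fold change was 0.66 ± 0.11 with an adjusted p of 0.0102. The call was lost in fits that also held library 20, with adjusted p of 0.189 over all 12 libraries, 0.0981 over the same libraries with Xist as a covariate, and 0.274 over the 9 libraries of the shared run. Over the 11 libraries without library 20, a fit added after the data were seen, it was 0.00749. The fold change itself was between 0.58 and 0.88 on the log2 scale in all 15 alternatives.

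Meis1 and Tcf21, the other cortical stroma genes, did not follow Foxd1. Meis1 had 69.8, 81.2 and 83.5 CPM in wild type and 68.9, 68.6 and 75 CPM in Hoxa-/- Hoxc-/-, and the groups overlapped. Its log2 fold change was -0.14 (95% interval -0.35 to 0.06). Tcf21, which stromal cells share with podocytes, had 188, 234.5 and 233.5 CPM in wild type and 187, 214 and 231 CPM in Hoxa-/- Hoxc-/-. These groups overlapped as well, at -0.06 (95% interval -0.32 to 0.21). For both genes the interval leaves out a change as large as that of Foxd1.

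Meis2 pointed the other way without passing the test. It had 141, 177 and 182.5 CPM in wild type and 117, 108 and 141 CPM in Hoxa-/- Hoxc-/-. The highest double mutant library, 29, stood just below the lowest wild type library, 30. The log2 fold change was -0.45 (95% interval -0.76 to -0.15) with an adjusted p of 0.0586, and the gene passed the threshold as lower in 5 of 15 alternatives, among them DESeq2 (0.0179) and the fits without wild type 30 (0.0205) or without Hoxa-/- Hoxc-/- 29 (0.0414). Ntn1, a laminin-related secreted protein made by stromal cells that guides axons and vessels, had 98.3, 86.0 and 94.4 CPM in wild type and 131, 128 and 106 CPM in Hoxa-/- Hoxc-/-. Its groups did not overlap, and the log2 fold change was 0.39 ± 0.10 with an adjusted p of 0.0421. This call rested on single libraries. It was lost without wild type 37 (0.14) or 55 (0.118) and without Hoxa-/- Hoxc-/- 24 (0.131) or 27 (0.106), and it was held in 5 of 15 alternatives. It was also lost with library size scaling (0.0587), limma (0.0861), 12 libraries without Xist (0.131) or with Xist (0.159) as a covariate, the 9 libraries of the shared run (0.129), and the 11 libraries without library 20 (0.0552).

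Sequences around annotated starts are shown for Twist2, Pdgfra and Foxd1, which rose, and for Meis2, because Hox and Meis proteins bind DNA together. RefSeq promoters of 300 bases on GRCm38.p6 were at hand for 7 of the 9 genes. Both strands were searched for TGACAG, the core bound by Meis proteins, for TTTATNG, a core bound by abdominal-B Hox proteins, and for CATCTG, an E-box bound by Twist dimers. Capitals mark the matches, and the runs read 5′ to 3′ on the strand of the gene.
Twist2: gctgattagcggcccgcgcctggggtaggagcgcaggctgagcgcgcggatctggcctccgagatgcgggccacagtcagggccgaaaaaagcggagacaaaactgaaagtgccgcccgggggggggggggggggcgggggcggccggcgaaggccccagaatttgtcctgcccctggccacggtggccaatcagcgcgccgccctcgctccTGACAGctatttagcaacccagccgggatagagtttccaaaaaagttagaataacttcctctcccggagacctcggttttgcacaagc
Pdgfra: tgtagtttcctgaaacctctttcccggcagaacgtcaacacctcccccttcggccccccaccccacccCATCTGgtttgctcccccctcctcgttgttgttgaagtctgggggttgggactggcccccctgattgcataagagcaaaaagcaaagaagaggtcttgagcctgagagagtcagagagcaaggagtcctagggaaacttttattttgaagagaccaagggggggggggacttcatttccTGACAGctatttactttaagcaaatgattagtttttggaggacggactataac
Foxd1: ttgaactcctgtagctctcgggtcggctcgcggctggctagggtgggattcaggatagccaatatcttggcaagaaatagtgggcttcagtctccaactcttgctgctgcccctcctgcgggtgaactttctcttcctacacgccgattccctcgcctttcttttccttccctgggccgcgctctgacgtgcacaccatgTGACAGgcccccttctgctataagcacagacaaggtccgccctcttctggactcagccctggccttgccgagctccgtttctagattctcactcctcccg
Meis2: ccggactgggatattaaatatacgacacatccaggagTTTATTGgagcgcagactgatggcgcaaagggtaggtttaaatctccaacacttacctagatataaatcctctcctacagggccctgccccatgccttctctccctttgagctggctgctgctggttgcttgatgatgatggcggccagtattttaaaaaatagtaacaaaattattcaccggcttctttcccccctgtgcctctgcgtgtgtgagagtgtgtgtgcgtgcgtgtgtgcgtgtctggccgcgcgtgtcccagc
The Twist2 promoter lies at chr1:91801211-91801510 on the plus strand, that of Pdgfra at chr5:75152001-75152300 on the plus strand, that of Foxd1 at chr13:98353995-98354294 on the plus strand and that of Meis2 at chr2:116064570-116064869 on the minus strand. The Twist2 and Foxd1 windows run past the annotated start. The Pdgfra and Meis2 windows lie inside the annotated genes, which begin at 75151322 and, on the minus strand, at 116067537. Twist2, Pdgfra and Foxd1 each held 1 TGACAG, and Meis1, Meis2, Tcf21 and Twist1 held none, with Ntn1 and Pdgfrb not searched. Among 32851 promoters of this length 19.2% held it. TTTATNG was found once each in Meis2 and Twist1 and in 10.9% of all promoters, and CATCTG once in Pdgfra and in 17.2% of all. A match describes the letters only and is not a bound site.

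Within each library the balance of fibroblast-type to cortical progenitor genes does not depend on the scaling between libraries. It was taken as the mean log2 CPM of Pdgfra and Twist2 minus that of Foxd1, Meis1 and Tcf21, with no test. These genes were chosen with earlier results of these data known, and Twist2 is on the list of the study. A separation of the groups in this ratio is therefore not independent evidence. In wild type 30, 37 and 55 it was -1.23, -1.50 and -1.40. In Hoxa-/- Hoxc-/- 24, 27 and 29 it was -0.35, 0.01 and -0.26. The double mutants therefore stood 1.17 higher on average, and the groups were far apart. Without Twist2 the difference was 0.64, and without Pdgfra it was 1.70. With Foxd1 alone as the cortical gene and Pdgfra alone as the fibroblast gene the log2 ratio was 3.10, 3.07 and 2.86 in wild type and 2.86, 3.23 and 3.34 in Hoxa-/- Hoxc-/-. These overlapped, with a mean difference of 0.13, so Pdgfra and Foxd1 were raised by similar factors. Set against Tcf21 in place of Pdgfra, Foxd1 stood at -3.15, -3.23 and -3.14 in wild type and at -2.22, -2.42 and -2.71 in Hoxa-/- Hoxc-/-. That pair was chosen after its values were seen.

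**Figure D2:**
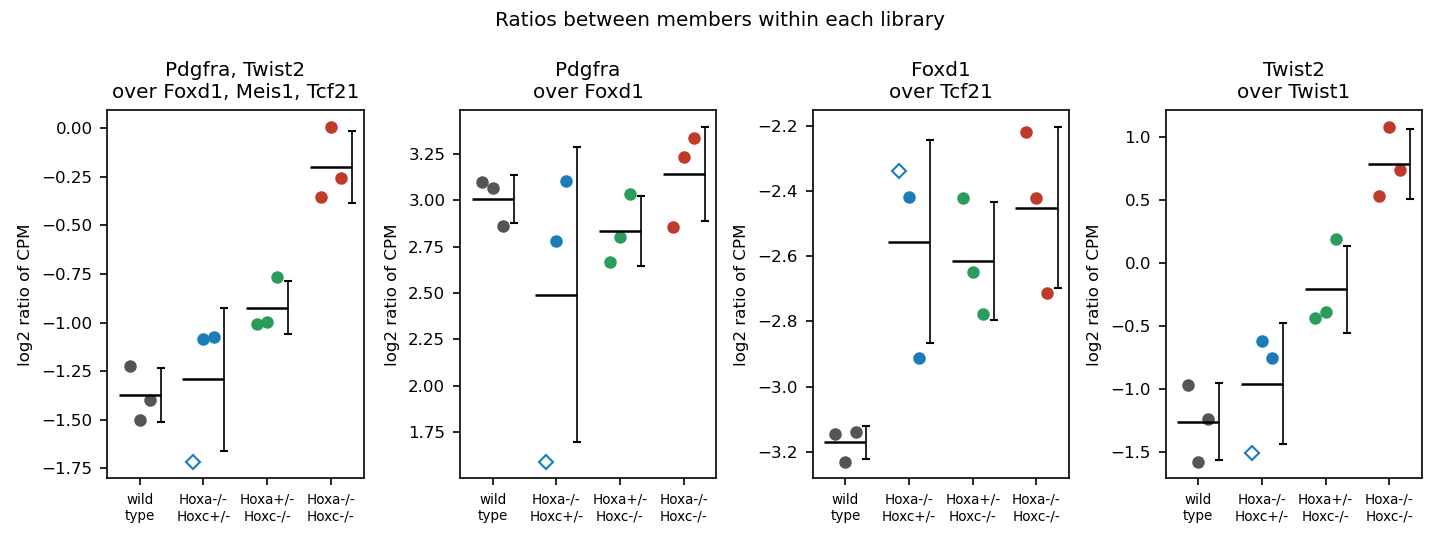
Log2 ratios of CPM between members within each library (y axes) by genotype (x axis), from left to right the fibroblast-type over the cortical progenitor genes, Pdgfra over Foxd1, Foxd1 over Tcf21 and Twist2 over Twist1. Each point is 1 library, the open diamond is Hoxa-/- Hoxc+/- 20, lines are means and bars are SDs of 3 libraries. The Hoxa-/- Hoxc-/- libraries lie above wild type in all but the ratio of Pdgfra to Foxd1.

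In Hoxa+/- Hoxc-/- against wild type, Twist2 and Ntn1 rose and no member fell. These 2 of 9 stand beside 2.36% of the 15902 genes tested that passed and 0.836% that passed as higher, with 1.53% as lower. The 376 genes behind that share became 60 to 549 with a library left out and 1265 with DESeq2. The groups did not overlap for 4 members, all higher, beside 11.4% of genes higher, 15.3% lower and 26.7% either way, and the same 4 had an unadjusted p under 0.05, beside 21.1%. The comparison shares its wild type libraries with the preceding one, and all its mutants come from the other sequencing run. Ntn1 had 123, 167 and 167 CPM in Hoxa+/- Hoxc-/- AC38, AC110 and AC115, above all wild types and, in AC110 and AC115, above all double mutants. Its rise was 1.65-fold (log2 fold change 0.72 ± 0.13, adjusted p 0.041). Twist2 had 7.69, 7.88 and 8.50 CPM, between the wild type and the double mutant levels without touching either. Its rise was 1.90-fold (0.93 ± 0.14, adjusted p 0.0277).

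Both calls depended on single libraries and on the model. Neither was past the threshold without wild type 37 (Twist2 0.139, Ntn1 0.206) or 55 (0.0695 and 0.152) or without Hoxa+/- Hoxc-/- AC110 (0.123 and 0.168) or AC115 (0.0945 and 0.116). With Xist as a covariate the adjusted p was 0.086 for Twist2 and 0.0724 for Ntn1, in 1 fit of all 12 libraries it was 0.0758 for Twist2, and limma gave 0.103 for Ntn1. Foxd1 had 28.7, 35.6 and 35.4 CPM and Pdgfra 235, 226 and 247 CPM in this genotype. Both genes were above all wild type libraries, and neither passed the test, with log2 fold changes of 0.46 (95% interval 0.18 to 0.75, adjusted p 0.0985) and 0.29 (0.10 to 0.47, adjusted p 0.105). DESeq2 put both past the threshold (0.02 and 0.0342). Meis1, Tcf21, Meis2, Pdgfrb and Twist1 had log2 fold changes between -0.12 and 0.15, and each overlapped wild type. The within-library ratio of fibroblast-type to cortical genes was -0.77, -1.01 and -1.0, above all wild type values. The separation rested on Twist2, since without that gene the difference was 0.13 in place of 0.45 and the groups overlapped.

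In Hoxa-/- Hoxc+/- no member passed the threshold. In Hoxa-/- Hoxc+/- against wild type 0 of 15789 genes (0%) passed in edgeR, and 360 had an unadjusted p under 0.05 (2.28%), Twist2 and Ntn1 among them, while DESeq2 called 18 and limma 1. The groups did not overlap for those 2 members, both higher, beside 3.57% of genes higher, 4.77% lower and 8.34% either way. Foxd1 had 67.6, 34.8 and 25.5 CPM in Hoxa-/- Hoxc+/- 20, 31 and 33. Library 20 was the highest of all 12, and library 33 lay among wild type. The log2 fold change of Foxd1 was 0.81 with library 20 (95% interval -0.05 to 1.67) and 0.31 without it (-0.07 to 0.69). Meis1, Tcf21, Meis2 and Twist1 were also highest in library 20, at 111, 342, 269 and 24.3 CPM. Without that library their log2 fold changes went from 0.14, 0.14, 0.13 and 0.45 to -0.08, -0.21, -0.26 and -0.22, so their direction rested on it. Without library 20, 8 of 15967 genes passed (0.0501%), 0.0188% as higher and 0.0313% as lower, none of them a member. The 8 included the sex-linked genes Xist, as higher, and Eif2s3y, Ddx3y, Uty and Kdm5d, as lower. In this setting sex and genotype cannot be told apart. Pdgfra, Twist2 and Ntn1 were then above all wild types, beside 16% of genes above and 32.9% without overlap either way, so this count is near the background.

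Twist2, Pdgfra and Ntn1 kept their direction without that library. Twist2 had 8.53, 5.71 and 5.20 CPM in Hoxa-/- Hoxc+/-, all above wild type, with a log2 fold change of 0.61 (95% interval 0.02 to 1.19) and an adjusted p of 1. Without library 20 it was 0.36, with an interval of -0.05 to 0.77 that includes 0. Pdgfra had 204, 239 and 219 CPM and overlapped wild type at 0.18 (95% interval -0.09 to 0.45), and without library 20 it was at 0.23 (0.01 to 0.45). Ntn1 had 136, 119 and 106 CPM, above all wild types, at 0.37 (0.07 to 0.68, adjusted p 1) and at 0.27 without library 20 (0.05 to 0.49). The fibroblast-type to cortical ratio was -1.72, -1.08 and -1.08 in Hoxa-/- Hoxc+/- 20, 31 and 33, overlapping wild type with a mean difference of 0.08, and libraries 31 and 33 were above all wild types. For Twist2, Foxd1, Pdgfra, Pdgfrb and Ntn1 the mean level was higher than wild type in each of the 3 mutant genotypes, and these comparisons share the same wild type libraries. Pdgfrb overlapped wild type in Hoxa-/- Hoxc+/- at 0.10 (95% interval -0.19 to 0.38), and was at 0.02 without library 20. The share of all genes with this pattern was not taken.

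The comparison of the double mutants with Hoxa-/- Hoxc+/- sets groups side by side that differ in Hoxc and, by the account of the study, in Hoxa11 as well, so it does not isolate Hoxc. With library 20 in the group, 0 of 15764 genes (0%) passed in edgeR, 1787 had an unadjusted p under 0.05, and DESeq2 called 487. Twist2 was 2.43-fold and Pdgfra 1.56-fold higher in the double mutants, with groups that did not overlap and adjusted p of 0.189 and 0.224. These were the 2 members without overlap, beside 9.95% of genes that were higher and 23% either way. DESeq2 put both past the threshold (4.2e-04 and 0.00807), as did 1 fit of all 12 libraries (0.0117 and 0.0172), in which 540 genes passed. Without library 20, 687 of 15986 genes passed (4.3%), 2.43% of those tested as higher and 1.86% as lower, and 1 of the 9 members was among them. The member past the threshold was Twist2, at a log2 fold change of 1.53 ± 0.18 and an adjusted p of 0.0169, while Pdgfra, at 0.59 ± 0.13, had 0.0515. The groups then did not overlap for 4 members, Twist2, Pdgfra, Foxd1 and Pdgfrb, all higher. Beside them stood 19.6% of genes higher, 24.8% lower and 44.4% either way. Foxd1 changed direction with that library, from -0.13 to 0.37. Ntn1 was level between the genotypes at 0.03 (95% interval -0.32 to 0.39).

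**Figure D3:**
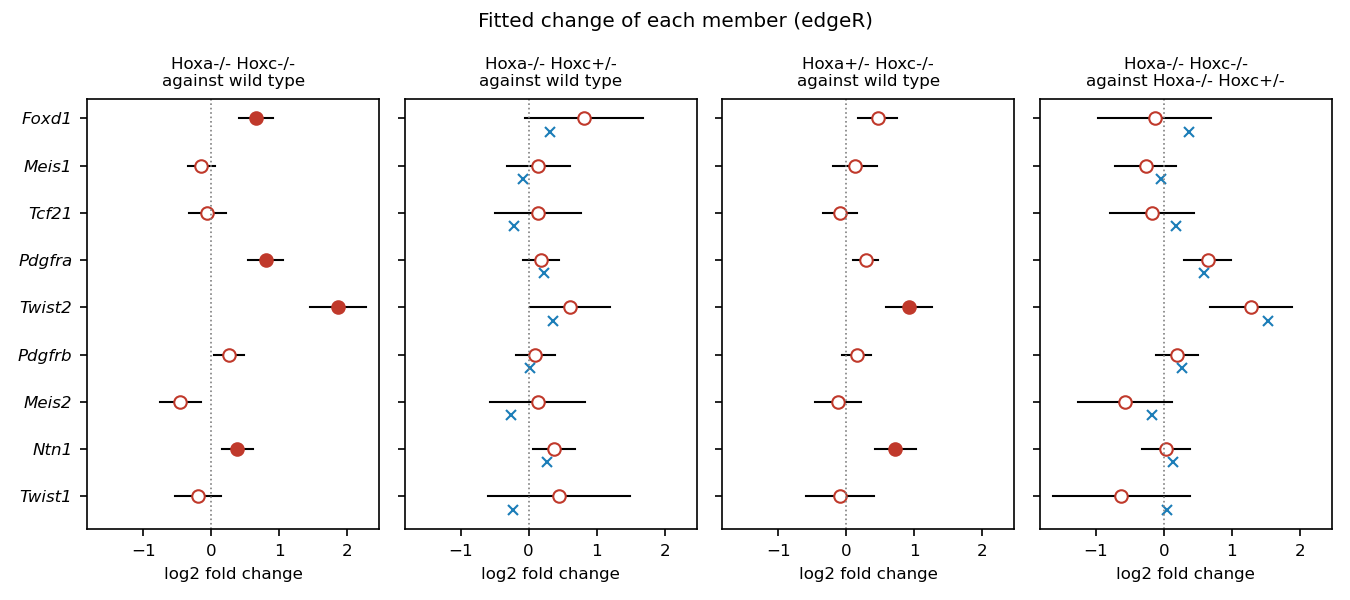
Log2 fold change of each of the 9 genes (x axis) in the 4 comparisons (panels). Circles are edgeR estimates, filled where past the threshold of 0.05, bars are 95% intervals, and blue crosses are estimates without Hoxa-/- Hoxc+/- 20 where that library enters. Twist2 and Pdgfra lie to the right of 0 in every panel, and the crosses change side for several genes.

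Over the 12 libraries some members moved together, which is given here as a description without a test. Pdgfra followed Twist2 with a Pearson r of 0.89 on log2 CPM, and 0.94 without library 20. Foxd1 followed Twist2 at 0.61 and 0.84, and Tcf21 at 0.61 and -0.04, so that its likeness to Tcf21 rested on that library. Meis1 followed Meis2 at 0.91 and 0.82. The genes most like Pdgfra among all with a mean of at least 1 CPM were the matrix collagens Col6a2 (0.97), Col3a1 (0.97) and Col6a1 (0.96). Those most like Twist2 were the matrix genes Matn2 (0.99), Col8a2 (0.98) and Smoc2 (0.97). All 6 are on the list the study drew up from these samples.

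The other members had other neighbours. Pdgfrb was closest to Runx1t1, Prdm6 and Pgm5 (r from 0.90 to 0.91), of which Prdm6 is a smooth muscle transcription factor. Ntn1 was closest to Tfap2b, a distal nephron transcription factor (0.94), Tob2 (0.92) and Slc7a11 (0.87). Foxd1 was closest to Sec22b, Atf5 and Yipf2 (0.94 to 0.95), Meis1 to 2900076A07Rik, 1700037C18Rik and Evl (0.97 to 0.98), and Tcf21 to Tram1l1, Car11 and Cldn3 (0.96 to 0.98). Meis2 was closest to Apitd1, Chaf1b and Hnrnpl, and Twist1 to Fam58b, Zranb1 and Lsm1 (all 0.98). These neighbours rest in part on library 20. Without it the closest gene was Efnb1, a ligand of Eph receptors, for Foxd1 (0.95), Adamts9 for Ntn1 (0.94, from 0.48), Tgif1 for Meis2 (0.97) and Smoc2 for Twist2 (0.99), and the second for Tcf21 was Rusc1 (0.93, from 0.66).

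Relatives and partners of the members were set beside them in the comparison of Hoxa-/- Hoxc-/- with wild type, in which the median log2 fold change over all genes tested was -0.01. Of 23 genes known in renal stroma development, members included, 6 rose and 2 fell, with a median of -0.06. Pdgfra, Foxd1 and Ntn1 are among those that rose. Of the 16 that are not members, 3 rose and 2 fell, with a median of -0.09. Over all genes tested, 6.31% passed as higher and 7.4% as lower. Fgf7, a stromal growth factor for the ureteric bud, rose from a mean of 0.309 to 2.19 CPM (log2 fold change 2.80 ± 0.38, adjusted p 0.00564). Lef1, a Wnt effector, and Sall1, a zinc finger factor of the cap mesenchyme, fell by 0.75 and by 0.68 on the log2 scale. Of 7 genes of the platelet-derived growth factor family, Pdgfra rose and its ligand Pdgfc fell, from 86.8 to 52.0 CPM (-0.74 ± 0.17, adjusted p 0.0282), and 5 did not pass. Thus a ligand and its receptor changed in opposite directions in the fit of these 6 libraries.

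Of 12 netrins and netrin receptors tested of 13 listed, 3 rose and 1 fell, with a median of 0.15. Besides Ntn1, the membrane-anchored netrin Ntng2 (14.1 to 25.7 CPM, 0.87 ± 0.19) and Ntn3 (17.4 to 26.2 CPM, 0.59 ± 0.12) rose, and the receptor Dscam fell (1.65 to 0.755 CPM, -1.12 ± 0.29). The adjusted p of Dscam was 0.0421 (edgeR), the same as that of Ntn1, whose call was lost in most alternatives. Whether the Dscam call held in them is not given here. None of the 11 TALE homeodomain genes, the family of Meis1 and Meis2, passed, and their median was -0.10. Among 14 tested relatives and partners of the Twist and Tcf21 factors, of 17 listed, Twist2 was the 1 that rose. Scx, a tendon and mesenchyme factor that the study also lists from these samples, fell from 11.9 to 5.01 CPM (-1.25 ± 0.29), and Id3, an inhibitor of such factors, fell from 257 to 187 CPM (-0.46 ± 0.11). The median was -0.17. Of 7 tested fork head genes of mesenchyme, of 9 listed, Foxd1 and Foxp2 rose. Foxp2 went from 5.97 to 14.0 CPM (1.23 ± 0.17), and the median was 0.04.

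Markers of the cell types that stroma forms moved unevenly. Of 14 fibroblast markers, 10 rose and none fell, with a median of 1.08. Besides Pdgfra and Twist2 they included the dermatopontin gene Dpt (1.25 to 14.6 CPM, 3.55 ± 0.29), the matrix proteoglycans Lum (14.7 to 121 CPM, 3.03 ± 0.22) and Dcn (96.5 to 408 CPM, 2.08 ± 0.16) and the microfibril gene Mfap5 (11.1 to 44.5 CPM, 2.00 ± 0.17). Lum, Dcn and Mfap5 are on the list of the study too, so this count is not independent evidence. The list summed to 1843, 1849 and 1699 CPM in wild type and to 2836, 3424 and 2815 CPM in the double mutants, and its most abundant gene was Ly6a. By mean level the largest parts of the sum were Ly6a (416 to 541 CPM) and Dpp4 (325 to 466 CPM). Both overlapped wild type and did not pass. Of 7 smooth muscle markers, 5 rose and none fell, with a median of 0.55, among them Actg2 (1.49 ± 0.18), Myocd, the coactivator of smooth muscle genes (0.79 ± 0.18), and the contractile genes Acta2 (0.56 ± 0.09) and Myh11 (0.55 ± 0.10).

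In the lists of mural and renin cells no gene passed as higher. Of 10 pericyte and mural markers, Pdgfrb among them, none passed as higher and Mcam fell by 0.27, while the other 9 had positive log2 fold changes and the median was 0.21. Of 6 markers of renin and mesangial cells, Gata3, which is also in the bud tip list, fell by 0.65 and Akr1b7 by 0.62, while Ren1 (0.29) and Agtr1a (0.41) had positive values that did not pass, and the median was -0.29. Of 6 markers of ureteric and periureteric mesenchyme, Tbx18, a T-box factor of ureteral smooth muscle progenitors (1.64 ± 0.19), the Hedgehog receptor Ptch1 (0.61 ± 0.13) and Tshz3 (0.56 ± 0.14) rose, the Wnt target Axin2 fell by 0.69, and the median was 0.29.

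**Figure D4:**
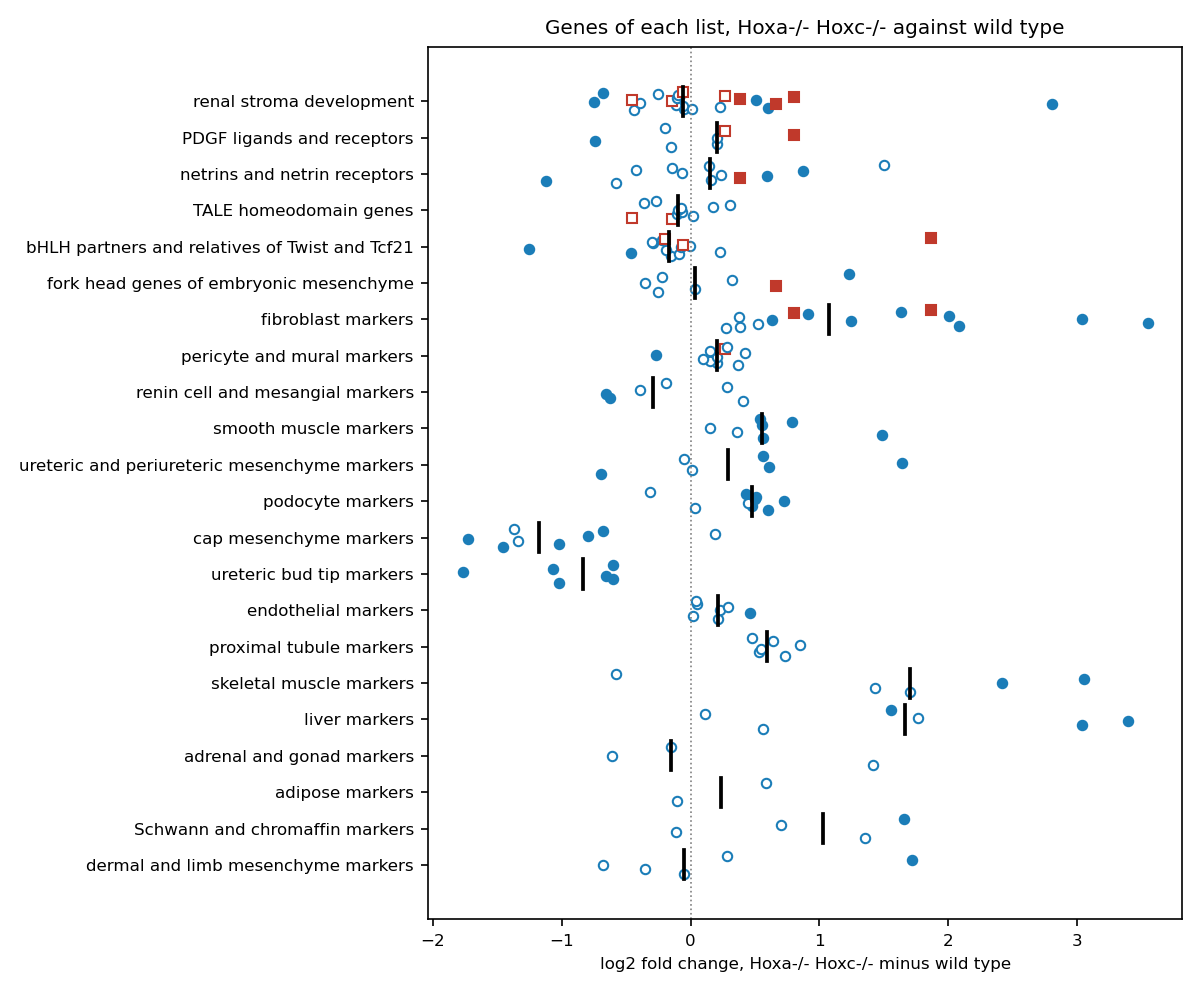
Log2 fold change of Hoxa-/- Hoxc-/- against wild type (x axis) of the tested genes of each list (rows). Squares are members of the 9 genes, circles are other genes, filled symbols are past the threshold of 0.05 and black bars are list medians. Fibroblast markers lie to the right with a median of 1.08, and cap mesenchyme and ureteric bud tip markers to the left with medians of -1.18 and -0.84.

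Markers of cells that stroma surrounds changed as well. Of 8 cap mesenchyme markers, 5 fell and none rose, with a median of -1.18, among them Gdnf, the growth factor that draws out the ureteric bud (-1.73 ± 0.28), Cited1 (-1.45 ± 0.34), Crym (-1.02 ± 0.24) and Meox1 (-0.80 ± 0.17). Six2 (-1.37, adjusted p 0.0868, edgeR) and Eya1 (-1.34, 0.0945) were below wild type in every double mutant and did not pass. The study lists both as down from these samples. Osr1 had 0.19 and did not pass. All 6 ureteric bud tip markers fell, with a median of -0.84, led by the Gdnf receptor Ret (-1.77 ± 0.28), Wnt11 (-1.07 ± 0.18) and Etv4 (-1.02 ± 0.23). Etv5 was the nearest of them to the threshold (adjusted p 0.0465, edgeR). Calls of named list genes were lost in 203 of 795 pairs of gene and alternative, so these counts hold for the fit of 6 libraries. Gdnf, Cited1, Crym, Wnt11 and Etv4 are also on the list of the study. Cap mesenchyme markers, led by Sall1, summed to 404, 471 and 533 CPM in wild type and to 227, 160 and 328 CPM in Hoxa-/- Hoxc-/-, and bud tip markers, led by Etv5, to 305, 352.5 and 368 and to 188, 160.5 and 232 CPM. Both sums were lower in every double mutant. Of 9 podocyte markers 6 rose and none fell, with a median of 0.48, among them Cdkn1c (0.60 ± 0.14), Ptpro (0.50 ± 0.09) and Podxl (0.50 ± 0.10). Wt1 (-0.315), Foxc2 (0.037) and Nphs1 (0.445) did not pass, and Cdkn1c is also in the stroma development list. Of 7 endothelial markers, Eng rose (0.47 ± 0.06) and the median was 0.22. None of 6 proximal tubule markers passed, with a median of 0.59 and log2 fold changes of 0.55 for Lrp2 and 0.64 for the phosphate transporter Slc34a1. What part the altered makeup of the kidney has in the change of Foxd1, Pdgfra, Twist2 and Ntn1 was not tested.

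**Figure D5:**
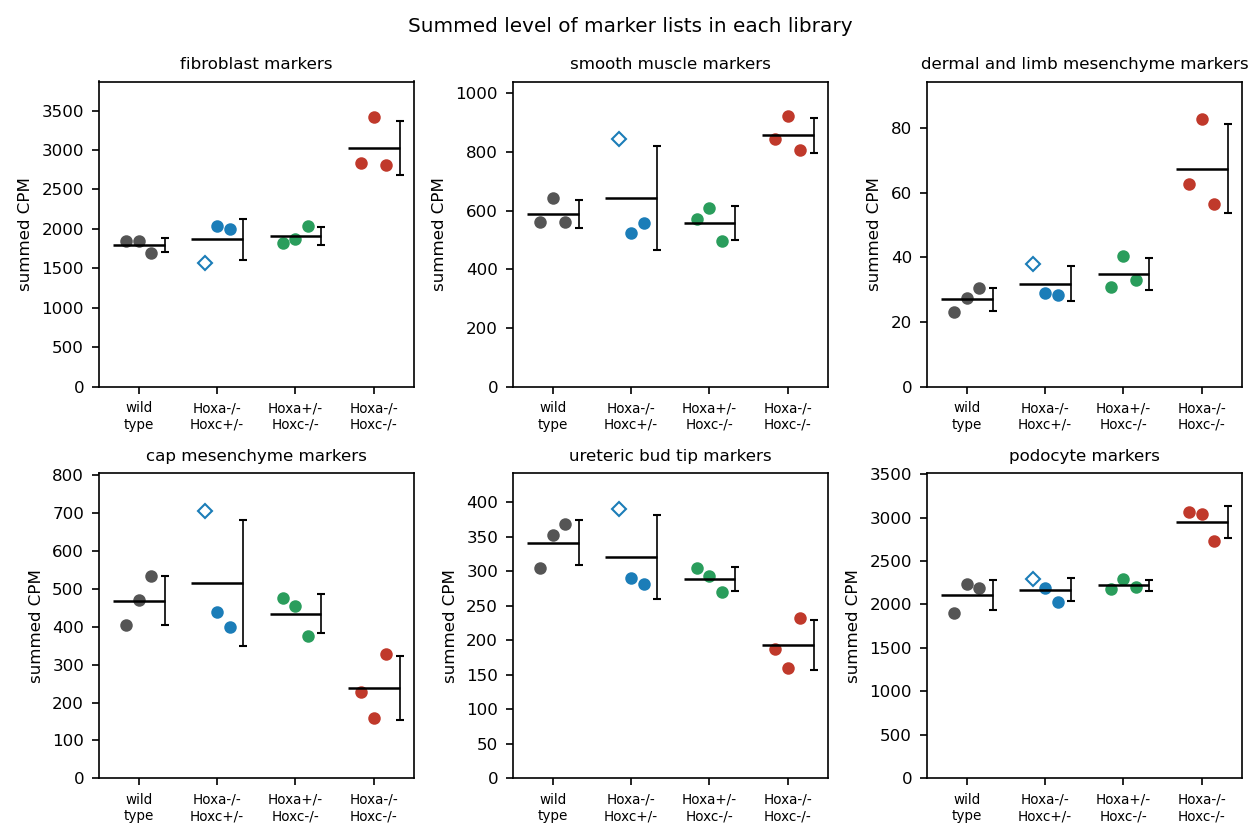
Summed CPM of 6 marker lists (y axes, from 0) in each of the 12 libraries by genotype (x axis). Each point is 1 library, the open diamond is Hoxa-/- Hoxc+/- 20, lines are means and bars are SDs of 3 libraries. Fibroblast, smooth muscle, mesenchyme and podocyte sums are above wild type and cap mesenchyme and bud tip sums below it in the 3 Hoxa-/- Hoxc-/- libraries.

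Markers of tissues that adjoin the kidney were also read. Of 8 markers of dermal and limb mesenchyme, 5 were tested and Prrx1, a homeodomain gene of mesenchyme, rose from 17.6 to 57.7 CPM (1.72 ± 0.19). That list, led by Prrx1, summed to 23.3, 27.4 and 30.4 CPM in wild type and to 62.8, 82.8 and 56.6 CPM in the double mutants, with a median of -0.05. Msx1 (-0.35) and Msx2 (-0.68) were below wild type in every double mutant and did not pass. The dermal and limb genes Tbx5 and En1 had fewer than 3 counts in every library. Of 7 skeletal muscle markers, 5 were tested and Myog (3.05 ± 0.62) and Myh3 (2.41 ± 0.47) rose, with a median of 1.70, while Tnnt3 was below wild type in every double mutant without passing (-0.57). The list, led by Tnnt3 in wild type and by Myh3 or Acta1 in the double mutants, summed to 2.39, 2.05 and 5.94 CPM in wild type and 9.66, 9.07 and 4.45 CPM in Hoxa-/- Hoxc-/-, and Pax7 was under 3 counts in 11 of 12 libraries.

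The remaining lists were markers of liver, of Schwann and chromaffin cells, of adipose tissue, and of adrenal gland and gonad. Of 6 liver markers, Alb (3.40 ± 0.58), Ahsg (3.04 ± 0.57) and Ttr (1.56 ± 0.27) rose, with a median of 1.66, and the list, led by Afp, summed to 80.0, 90.4 and 48.1 CPM in wild type and 141, 149 and 72.1 CPM in the double mutants. Of 7 markers of Schwann and chromaffin cells, 4 were tested and Sox10 rose (1.66 ± 0.36), with a median of 1.03. That list summed to 3.13, 3.14 and 3.17 CPM and to 5.51, 6.80 and 8.82 CPM. The adipose list, led by Fabp4, summed to 262, 299 and 307 CPM in wild type and 282, 277 and 258.5 CPM in the double mutants. None of 3 tested adrenal and gonad markers of 8 (median -0.15) and neither of 2 tested adipose markers of 6 (median 0.24) passed. Their most abundant genes, Star and Fabp4, had log2 fold changes of -0.15 and -0.11, Nr5a1 and Pparg had -0.61 and 0.58, Cyp11a1 had 1.42 (95% interval 0.40 to 2.44) with every double mutant above wild type, and Adipoq, Cfd and Lep were under 3 counts in at least 11 of 12 libraries. The part of these tissues in the rise of the stromal genes was not tested. Sums of the liver, skeletal muscle and adipose lists overlapped between wild type and double mutants, and those of the Schwann and chromaffin and the dermal and limb lists were higher in every double mutant, the latter with Prrx1 as its largest part.

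In the partial mutants few genes of these lists passed the threshold. In Hoxa+/- Hoxc-/- against wild type, Lum (1.08 ± 0.15) and Twist2 were the 2 of 14 fibroblast markers that rose, Myocd (0.99 ± 0.14) was the 1 of 7 smooth muscle markers, and Ret, which fell by 0.52, was the 1 of 6 bud tip markers. Apart from Ntn1, no other gene of the lists passed, and the medians were 0.31 for fibroblast, 0.05 for smooth muscle, -0.19 for cap mesenchyme and -0.23 for bud tip markers beside 0.01 over all genes tested. The liver median was 1.45 in that comparison and 2.26 in Hoxa-/- Hoxc+/- against wild type, with log2 fold changes of 3.71 and 3.86 for Alb, though no liver marker passed, and without library 20 the latter median was 1.22. In Hoxa-/- Hoxc+/- against wild type no gene of these lists passed, and the fibroblast median was 0.17 beside 0.03 over all genes, or 0.21 without library 20. In the double mutants against Hoxa-/- Hoxc+/- none passed with library 20. Without it, as an alternative added after the data were seen, 9 of 14 fibroblast and 4 of 7 smooth muscle markers rose, with medians of 0.92 and 0.68, and 0 of 8 cap mesenchyme and 0 of 6 bud tip markers passed, with medians of -0.84 and -0.55.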

How the data were processed

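The deposited table holds expected counts of the authors, who aligned reads to mm10 and removed reads placed at more than 1 position, and the deposited normalized table holds log2 values. Counts were rounded for fitting. Each comparison was fitted on its 6 libraries with edgeR 4.0.16 quasi-likelihood tests (R 4.3.3), TMM scaling and filterByExpr (at least 10 counts, total 15), with Benjamini-Hochberg adjustment over all tested genes and a threshold of 0.05. Alternatives used DESeq2 1.42.0, limma 3.58.1 on the deposited log2 values, other scaling, filters and sample sets, Xist as a covariate, and each library left out. The code was tested on simulated data. The 9 genes and the lists were chosen with earlier results of these data known. Named list genes are up to 4 past the threshold by size, or else the 2 most abundant, with a few others of known role. Figures were drawn with Python 3.11.15 and matplotlib 3.10.9. Promoters are from RefSeq. Results of a few list genes are not reported here.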

Additional observations from a re-analysis of the deposited data

How the results depend on the processing

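Hoxa-/- Hoxc-/- against wild type gave 2171 genes, which became 1190 in 1 fit of 12 libraries, 690 in the 9 libraries of the shared run, 984 with Xist as a covariate, 3280 with DESeq2, 1215 with limma, and 535 to 3386 with a library left out. Members past the threshold were 2 in the fits of 12 libraries, of 9 libraries and with Xist. Twist2 and Pdgfra held in all 15 alternatives. For the named list genes that are not members, 795 pairs of gene and alternative were read. The call was lost in 203 of these, gained in 3, and the direction turned in 2. Which list genes lost their call is not given here, so the list counts of this comparison are those of the fit of 6 libraries. Log2 fold changes turned for Tcf21 to 0.12 and Twist1 to 0.063 with Xist, for Tcf21 with a library left out (-0.149 to 0.024, above 0 without wild type 37 or Hoxa-/- Hoxc-/- 24), for Star with a library left out (-0.333 to 0.005, the latter without wild type 55) and for Fabp4 to 0.15 with Xist. Hoxa-/- Hoxc+/- against wild type gave 2 genes in 12 libraries, 18 with DESeq2, 1 with limma and 0 to 8 with a library left out, and without library 20 the lowest values of Meis1 (-0.084 to 0.246 with a library left out), Tcf21 (-0.214 to 0.288), Meis2 (-0.259 to 0.312) and Twist1 (-0.224 to 0.692) were reached, all turned. Hoxa+/- Hoxc-/- against wild type gave 149 genes in 12 libraries, 124 with Xist, 1265 with DESeq2, 158 with limma, 976 in the 11 libraries without library 20, and 60 to 549 with a library left out, and members were 1, 0, 4 and 1 in the first 4 of these and 0 to 2 with a library left out. Tcf21 (0.003) and Twist1 (0.11) turned with Xist, and Twist1 (-0.222 to 0.09 with a library left out) without library AC38. Hoxa-/- Hoxc-/- against Hoxa-/- Hoxc+/- gave 1 gene with every gene of at least 1 count kept, 540 in 12 libraries, 181 in 9, 646 with Xist, 487 with DESeq2, 1 with limma and 0 to 687 with a library left out, and members were 2, 1, 2 and 2 in 12 libraries, 9 libraries, with Xist and with DESeq2, and 0 to 1 with a library left out. Without library 20 Foxd1 (-0.408 to 0.369 with a library left out), Tcf21 (-0.329 to 0.179) and Twist1 (-0.882 to 0.047) turned to their highest values, and Ntn1 (-0.067 to 0.133) turned without Hoxa-/- Hoxc+/- 33 or Hoxa-/- Hoxc-/- 24 or 27. The fibroblast-type to cortical ratio against wild type became -0.52, -0.17 and 0.13 as Pdgfra over Foxd1 in Hoxa-/- Hoxc+/-, Hoxa+/- Hoxc-/- and Hoxa-/- Hoxc-/-. In Hoxa-/- Hoxc+/- it was -0.12 without Twist2, -0.007 without Meis1, -0.026 without Tcf21, and -0.025 to 0.294 with a library left out, below 0 without library 31 or 33. In Hoxa+/- Hoxc-/- it was 0.77 without Pdgfra, 0.13 without Twist2 and 0.60 without Foxd1, and in Hoxa-/- Hoxc-/- 1.70, 0.64 and 1.43. The fit of 11 libraries, the list counts without library 20 and the single pairs of genes were chosen after seeing the data. The cause of these shifts was not tested. No paired analysis was possible because the replicate numbers are not shared between groups. Depth limits genes at a few counts per library, not the members.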
